A study of Mus musculus with 10 samples.

Results

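The genes of the cytosolic ribosomal proteins were followed through the CUT&Tag peak lists of 6 mouse macrophage libraries, 4 of NPM1 and 2 of H3K4me3. Members were the protein-coding genes whose symbol is Rpl or Rps, a number and at most one letter a, x or l, together with Rplp0, Rplp1, Rplp2 and Rpsa, on the assembled chromosomes of the GRCm38.p6 table, the assembly that mm10 names. This gave 81 of 21887 genes, 31 of the small subunit and 50 of the large. The spelling leaves out Rps3a1, which encodes a small subunit protein, and takes in Rpl32l, Rpl3l, Rpl10l, Rpl39l and Rps27l, which carry the names of copies.

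A ribosome joins a small subunit, which reads the messenger RNA, to a large subunit, which makes the peptide bond, and each is a shell of proteins around ribosomal RNA. The genes of these proteins are short and broadly active, many of their transcripts begin with a run of pyrimidines (a 5′ TOP start) through which mTORC1 controls their translation, and many of their introns hold small nucleolar RNA genes. NPM1 (nucleophosmin) is a nucleolar protein that takes part in ribosome assembly and also acts as a histone chaperone on chromatin. H3K4me3 is the histone mark found at the start of active genes.

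The NPM1 libraries were 1 of cardiac macrophages from WT mice at day 3 after a sham operation, 1 of cardiac macrophages from WT mice at day 3 of myocardial infarction, 1 of untreated WT bone marrow-derived macrophages and 1 of such cells after 12 hours of IL-4 at 20 ng/ml. The bone marrow cells had been grown for 7 days with M-CSF at 50 ng/ml. H3K4me3 was mapped in cardiac macrophages at day 3 of infarction from WT mice and from conditional Npm1 knockout mice. The Cre driver, the deleted part of Npm1 and whether hearts were pooled are not given in the sources. The other 4 libraries of the series, all of bone marrow-derived macrophages after IL-4, were not analysed here.

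Each group was 1 library, so no value below has a replicate error and no difference was tested. The fold enrichment and the −log10 q of each peak were computed by the authors and rank peaks within 1 list only; where a gene has no peak, none passed the authors' calling at that library's depth. The genome-wide background pileup, read from the deposited fold and −log10 p, was 1.29 in the sham and 1.31 in the untreated list, against 3.03 in the infarct, 4.18 in the IL-4, 2.92 in the WT H3K4me3 and 2.49 in the knockout H3K4me3 list, and the lists held 52977 to 104514 peaks. Of 12 macrophage marker genes, 12 had a gene-end peak in the infarct and IL-4 NPM1 lists and in the knockout H3K4me3 list, 11 had one with WT H3K4me3, 2 with sham NPM1 and 0 with untreated NPM1. Of 6 cardiomyocyte marker genes, 2 had one with infarct NPM1, 1 with sham NPM1, 1 with WT H3K4me3 and 0 in the other lists. After infarction NPM1 marked 2 of 5 marker genes of endothelium, 1 of 6 of neutrophils, 1 of 5 of T or NK cells and 0 of 4 of B cells, while none of 6 fibroblast genes was marked. In the same order, WT H3K4me3 marked 3, 3, 3, 0 and 1 of these genes and knockout H3K4me3 marked 2, 2, 2, 2 and 4, so the 2 libraries whose H3K4me3 is compared also differed at fibroblast and B cell marker genes. The part of other cells in the values of members was not tested.

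Promoter windows were listed for 61 of the 81 members by RefSeq (GRCm38.p6). They are shown first because 48 of 54 infarct start-site NPM1 summits lay within 250 bp of a listed start. The first set holds the 6 members with the highest −log10 q for a start-site NPM1 peak after infarction. The summits of Rpl10 and Rps2 fell inside the stretch shown, and those of Rpl10a, Rpl13a, Rpl27 and Rps27l fell outside it. Each line runs 5′ to 3′ from 150 bases before to 30 bases after the most upstream listed start. Capitals mark 6 motifs on either strand. The core of ETS factor sites was searched as CCGGAAG and the core of YY1 sites, without its last base, as AAGATGG. The box bound by SP1 was searched as GGGCGG and the classical box upstream of some starts as TATAAA. The E-box was searched as CACGTG and the repeated piece of the NRF1 site as TGCGCA. No motif contains another.
Rpl10a (chr17:28328321-28328500, + strand): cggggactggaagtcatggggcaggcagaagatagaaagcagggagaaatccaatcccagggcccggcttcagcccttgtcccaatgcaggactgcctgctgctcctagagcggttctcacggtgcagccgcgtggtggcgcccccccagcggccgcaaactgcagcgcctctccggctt
Rpl13a (chr7:45128716-45128895, - strand): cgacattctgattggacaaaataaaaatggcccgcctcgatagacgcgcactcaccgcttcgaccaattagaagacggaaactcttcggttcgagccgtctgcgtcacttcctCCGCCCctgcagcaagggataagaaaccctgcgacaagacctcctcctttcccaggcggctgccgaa
Rpl27 (chr11:101442095-101442274, + strand): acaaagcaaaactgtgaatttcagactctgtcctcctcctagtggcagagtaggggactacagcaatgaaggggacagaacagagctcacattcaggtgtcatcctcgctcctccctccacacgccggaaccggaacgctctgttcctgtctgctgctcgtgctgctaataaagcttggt
Rpl10 (chrX:74270666-74270845, + strand): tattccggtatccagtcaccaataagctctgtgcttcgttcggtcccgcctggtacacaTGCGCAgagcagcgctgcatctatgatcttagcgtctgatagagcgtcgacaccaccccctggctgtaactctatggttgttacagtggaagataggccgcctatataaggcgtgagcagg
Rps27l (chr9:66945936-66946115, + strand): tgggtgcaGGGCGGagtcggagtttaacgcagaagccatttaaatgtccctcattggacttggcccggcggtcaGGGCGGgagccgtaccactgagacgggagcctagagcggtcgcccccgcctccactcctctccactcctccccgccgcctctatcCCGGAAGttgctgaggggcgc
Rps2 (chr17:24719913-24720092, + strand): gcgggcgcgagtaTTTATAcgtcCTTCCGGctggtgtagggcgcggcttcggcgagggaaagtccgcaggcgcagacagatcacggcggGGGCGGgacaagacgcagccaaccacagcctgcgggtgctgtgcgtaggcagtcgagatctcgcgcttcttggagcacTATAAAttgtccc

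Among these, Rpl10a and Rpl27 hold none of the 6 motifs in the stretch shown, Rps27l holds both the ETS core and the SP1 box, and Rps2 holds those 2 and TATAAA. The second set had no NPM1 peak within 1 kb of a listed start after infarction, and it is shown for contrast. Rpl37a, Rpl6 and Rps4x had H3K4me3 at the start all the same, and Rpl10l, a copy of Rpl10 that is active in the testis, had none.
Rpl37a (chr1:72711110-72711289, + strand): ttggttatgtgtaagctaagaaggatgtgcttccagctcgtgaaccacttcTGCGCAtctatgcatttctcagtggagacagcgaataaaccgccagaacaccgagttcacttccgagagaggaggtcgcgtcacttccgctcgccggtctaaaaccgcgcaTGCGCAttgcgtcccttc
Rpl6 (chr5:121204351-121204530, + strand): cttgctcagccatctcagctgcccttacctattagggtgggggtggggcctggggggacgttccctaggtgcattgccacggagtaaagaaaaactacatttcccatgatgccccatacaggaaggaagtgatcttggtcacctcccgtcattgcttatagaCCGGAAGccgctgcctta
Rps4x (chrX:102189362-102189541, - strand): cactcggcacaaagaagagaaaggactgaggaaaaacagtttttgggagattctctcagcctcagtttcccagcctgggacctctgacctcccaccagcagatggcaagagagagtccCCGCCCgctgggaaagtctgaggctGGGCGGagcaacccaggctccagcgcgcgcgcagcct
Rpl10l (chr12:66284372-66284551, - strand): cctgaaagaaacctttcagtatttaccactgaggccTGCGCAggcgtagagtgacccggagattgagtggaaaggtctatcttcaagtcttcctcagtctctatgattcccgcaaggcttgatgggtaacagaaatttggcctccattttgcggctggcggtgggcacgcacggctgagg

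The members of this second set also held such letters, the ETS core in Rpl6, the SP1 box in Rps4x and TGCGCA in Rpl37a and Rpl10l. Over the whole window, from 250 bases before to 50 after each listed start, the ETS core CCGGAAG was found in 39.3% of the 61 members and in 11.9% of the 17486 genes with a listed window. AAGATGG stood in 14.8% of the members and 6.35% of all, TGCGCA in 18% and 10.1%, and GGGCGG in 57.4% and 46.3%. TATAAA was in 11.5% of the members and 13.3% of all, and CACGTG in 8.20% and 7.91%. The median GC content was 57.0% in members and 56.3% in all windows. A match is a description of the letters and says nothing of a factor's binding. The median infarct fold of members with a start-site peak was 4.56 with the ETS core (22 members) and 4.45 without it (32 members). It was 4.90 with the SP1 box (32 members) and 4.05 without it (22 members), and 5.78 with TATAAA (4 members) and 4.24 without. The median was lower with AAGATGG (4.03 in 8 members, 4.48 without) and TGCGCA (4.23 in 9 members, 4.65 without). It was also lower with CACGTG (3.47 in 5 members, 4.71 without).

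A listed start that was a C followed by at least 4 pyrimidines was found in 14 of the 61 members (23.0%), against 2.66% of all genes: Rpl14, Rpl15, Rpl28, Rpl32l, Rpl35, Rpl35a, Rpl38, Rplp2, Rps10, Rps15a, Rps18, Rps21, Rps27 and Rps6. A run of 7 pyrimidines from 30 bases before to 50 bases after a listed start, a looser measure that allows for an imprecise start, was found in 85.2% of members and 45.7% of all. The starts of 4 of the 14 are shown, from 15 bases before to 14 bases past the start base, with the pyrimidine run that begins at the start in capitals. Rps6 is a target of the S6 kinases, Rps18 sits in the head of the small subunit, Rpl15 is a large subunit protein, and Rplp2 belongs to the stalk.
Rps6 (chr4:86857353-86857382, - strand): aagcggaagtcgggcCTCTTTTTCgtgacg
Rps18 (chr17:33955651-33955680, - strand): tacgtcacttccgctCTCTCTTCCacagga
Rpl15 (chr14:18270972-18271001, - strand): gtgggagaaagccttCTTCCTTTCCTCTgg
Rplp2 (chr7:141447636-141447665, + strand): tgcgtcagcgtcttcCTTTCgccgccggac

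NPM1 peaks covered the ends of nearly all members in infarct cardiac macrophages and in IL-4-treated bone marrow-derived macrophages, and of few in the sham and untreated lists. A peak within 1 kb of either end of the gene, called a gene-end peak from here on, was listed for 72 of 81 members after infarction, where 50.6% of all genes had one, and for 75 in the IL-4 list, where 51.2% of all genes did. The sham list held 9 members against 10.9% of all genes, and the untreated list 3 against 6.71%. With a −log10 q of 5 or more, 48 members remained after infarction (27.9% of all genes), 53 with IL-4 (29.4%), 0 in the sham list (0.681%) and 0 in the untreated list (0.397%). The share of members was therefore above that of all genes in the 2 deeper lists and close to it, or below, in the 2 shallower ones.

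**Figure D1:**
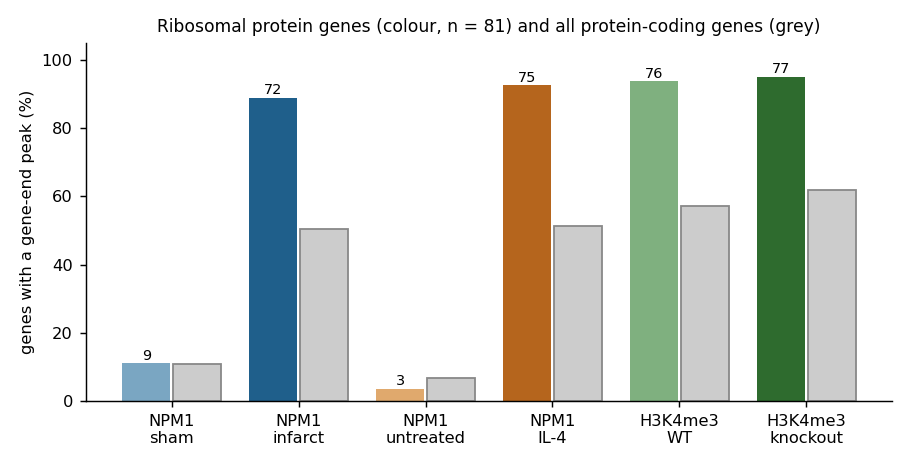
Share of genes with a peak within 1 kb of either gene end in each of the 6 lists (1 library each), for the 81 ribosomal protein genes (coloured bars, number of genes on top) and for all 21887 protein-coding genes (grey bars). The 2 sets are alike in the sham list (9 members) and apart in the infarct list (72 members), the IL-4 list (75) and both H3K4me3 lists (76 and 77).

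Infarction and sham operation differed as follows. A gene-end peak stood in the infarct list alone for 65 members (43.4% of all genes), in the sham list alone for 2, Rpl37a and Rps2 (3.75%), in both for 7 and in neither for 7. In bone marrow-derived macrophages the IL-4 list alone held 73 members (46.5%), the untreated list alone 1, Rps2 (1.98%), both 2 and neither 5. Rps2 had infarct and IL-4 peaks at its listed start, outside the gene-end window. The sham and untreated libraries were also the 2 shallow ones. The summits of the deeper list of each pair were scaled to the background of the shallower. A Poisson p of 0.01 or less was then reached by 71 of the 72 infarct members and 71 of the 75 IL-4 members. The same held for 93.6% of all genes marked after infarction and 84.7% of all genes marked with IL-4. Only summits already called in the deeper list were scaled, so the scaling cannot tell what a shallower library would have listed. Differences in antibody enrichment between libraries, with 1 library a group, cannot be told apart from differences between the conditions.

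The infarct and IL-4 lists marked largely the same members. Gene-end peaks in both were listed for 71 members, of 72 marked after infarction and 75 with IL-4. Of all genes, 43.5% had both, 50.6% an infarct peak and 51.2% an IL-4 peak. The infarct list alone held Rpl6, and the IL-4 list alone held Rpl37a, Rpl22, Rpl23a and Rps4x. Neither held a gene-end peak of Rpl32l, Rpl10l, Rpl39l, Rps2 or Rpl17. Outside the gene-end window, Rps2 and Rpl17 had peaks inside the gene in both lists, and Rpl22 had one near a listed start in both. The summits of the 71 lay a median of 78 bp apart. They were within 100 bp of each other for 41 members and within 250 bp for 62, where 80.3% of all genes with both peaks were that close, and more than 1 kb apart for 4. Spearman's rho between the 2 folds was 0.73 over these 71 members (Pearson's r 0.74) and 0.81 over the 9518 genes with both; genes of a list share its depth and base composition and are not independent.

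The strongest member by fold in both lists was Rps29, a small subunit protein of the head mutated in some families with Diamond-Blackfan anaemia (chr12:69157722-69159186). Its NPM1 fold was 8.41 after infarction (−log10 q 29.4, width 1251 bp) and 8.97 with IL-4 (−log10 q 40.6, width 867 bp). It was also the only member with a gene-end peak in all 4 NPM1 lists, with a fold of 4.37 in the sham list (−log10 q 2.80) and of 3.46 in the untreated list (−log10 q 1.40). The 4 summits lay close together, at 69159320 after infarction, 69159385 with IL-4, 69159373 in the sham list and 69159379 in the untreated list.

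By −log10 q, the first 8 members after infarction were Rpl3l, Rpl10a, Rpl13a, Rps29, Rpl27, Rpl10, Rpl3 and Rplp1, and the first 8 with IL-4 were Rps29, Rpl10a, Rpl3, Rps19, Rplp0, Rpl13a, Rps25 and Rplp1. Rpl10a, which forms the mobile L1 stalk of the large subunit (chr17:28328471-28331033), had a fold of 6.63 after infarction (−log10 q 31.4, 1148 bp) and of 6.03 with IL-4 (−log10 q 30.2, 1473 bp). Rpl13a, a large subunit protein that is also released to repress inflammatory messages in monocytes (chr7:45125563-45128745), had 6.29 (−log10 q 30.8, 696 bp) and 5.52 (−log10 q 28.1, 1068 bp). Rpl3, which reaches the peptidyl transferase centre (chr15:80077781-80083406), had 6.20 (−log10 q 25.7, 1022 bp) and 6.63 (−log10 q 29.8, 819 bp), with both summits at 80083283. None of these 3 had a gene-end peak in the sham or untreated list.

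Rpl27, a large subunit protein (chr11:101442245-101445596), reached 7.65 after infarction (−log10 q 26.6, 614 bp) and 6.27 with IL-4 (−log10 q 18.3, 662 bp). Rpl10, an X-linked protein added late in the assembly of the large subunit (chrX:74270816-74273135), had 7.26 (−log10 q 26.4, 1443 bp) and 5.06 (−log10 q 14.3, 1503 bp). Rps19, the gene most often mutated in Diamond-Blackfan anaemia (chr7:24884592-24889811), had 5.24 (−log10 q 17.8, 1171 bp) and 6.59 (−log10 q 29.7, 1211 bp). Rps25, a protein of the small subunit head (chr9:44407714-44410406), gave nearly the same fold in both, 6.17 after infarction (−log10 q 24.4, 1134 bp) and 6.37 with IL-4 (−log10 q 25.8, 1035 bp).

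Rpl3l, a copy of Rpl3 that is active in heart and skeletal muscle, had the highest −log10 q of all members after infarction, but the peak was not at its start. It lay past the far end of the gene (chr17:24727826-24736143, + strand, summit 24736568), over an end of the neighbouring gene Msrb1, with a fold of 7.14 after infarction (−log10 q 33.5, 747 bp) and 5.24 with IL-4 (−log10 q 17.7, 835 bp). No NPM1 or H3K4me3 peak lay within 1 kb of its listed start. Sharing of this kind was found for 15 of the 72 infarct members (20.8%) and for 17.7% of all genes with an infarct peak. In Rps28 and Ndufa7 the listed starts were 10 bp apart on opposite strands. The same held at 66 bp for Rpl9 and Lias, 67 bp for Rps27 and Rab13, and 71 bp for Rpl12 and Lrsam1. It held at 135 bp for Rps18 and Vps52 and at 165 bp for Rpl7a and Med22. A peak there could not be assigned to 1 gene of the pair. The median infarct fold was 4.93 for the 15 shared peaks and 4.20 for the other 57.

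**Figure D2:**
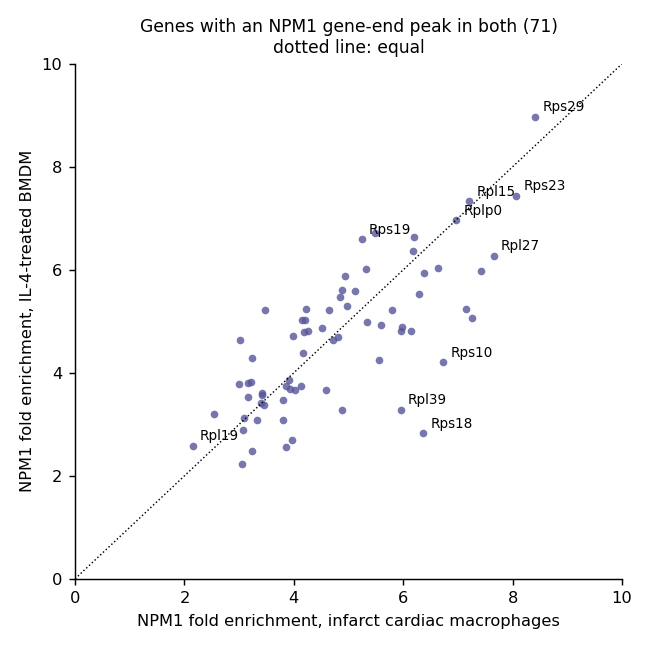
NPM1 fold enrichment at the strongest gene-end peak of each of the 71 members with a peak in both lists, infarct cardiac macrophages (horizontal) against IL-4-treated bone marrow-derived macrophages (vertical), 1 library each. Rps29 is highest in both (8.41 and 8.97), and Rps18 (6.36 and 2.83) lies far below the line of equal values.

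At the other end, the weakest infarct peaks by −log10 q were those of Rpl19 (fold 2.15, −log10 q 0.715, 200 bp) and Rpl6 (2.73, 1.26, 229 bp). With IL-4 they were those of Rpl35 (2.22, 1.18, 213 bp), Rpl5 (2.70, 1.66, 243 bp) and Rps26 (2.49, 1.66, 694 bp). Rps18, a protein of the small subunit head, stood out between the 2 lists, with a fold of 6.36 after infarction (−log10 q 22.5) and 2.83 with IL-4 (−log10 q 3.54) at summits 33955722 and 33955717. Rps10 (6.73 and 4.21) and Rpl39 (5.95 and 3.28) lay on the same side. These 3 were chosen after their values were seen, and the difference of single peaks between 2 libraries was not tested.

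**Figure D3:**
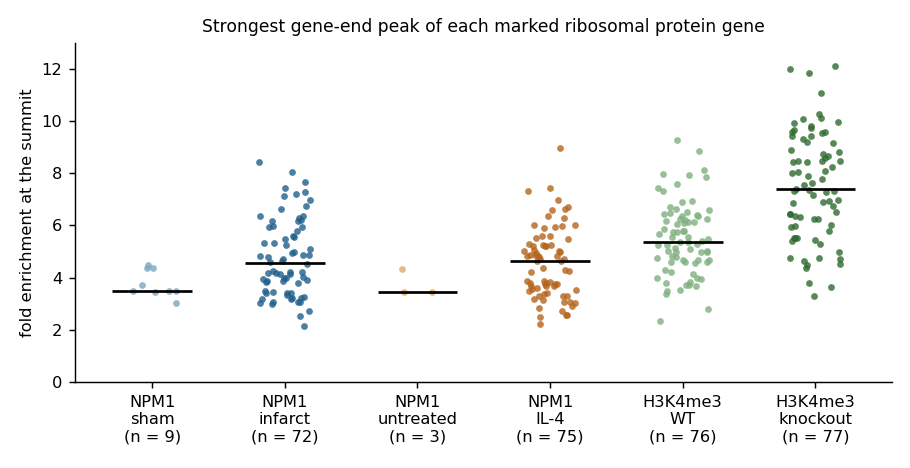
Fold enrichment at the summit of the strongest gene-end peak (authors' value), 1 point for each ribosomal protein gene with such a peak, in each of the 6 lists; horizontal bars are medians. The medians were 3.50 (sham), 4.55 (infarct), 3.46 (untreated), 4.63 (IL-4), 5.37 (WT H3K4me3) and 7.41 (knockout H3K4me3); levels of different lists also differ with library depth.

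The NPM1 peaks of marked members were of middling to high rank. Their median fold was 4.55 after infarction, from 2.15 to 8.41, where all marked genes had a median of 4.17, and their median percentile among those genes was 58.3. With IL-4 the median was 4.63, from 2.22 to 8.97, against 3.96 for all, at percentile 63.2. Widths had a median of 616 bp after infarction (all genes 554 bp) and 596 bp with IL-4 (all genes 544 bp). The small subunit had 29 of 31 members marked after infarction at a median fold of 4.71, and the large subunit 43 of 50 at 4.20; with IL-4 these were 30 at 4.75 and 45 at 4.29. Small nucleolar RNA genes, 58 in all, lay inside 29 members, whose median fold was 4.19 after infarction and 4.63 with IL-4, against 4.72 and 4.70 for members without one.

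The ribosomal stalk, which recruits elongation factors, was marked in full. Rplp0, its base (chr5:115559467-115563729), had 6.97 after infarction (−log10 q 21.8) and 6.96 with IL-4 (−log10 q 28.4). Rplp1 (chr9:61913283-61914510) had 6.37 (−log10 q 25.6, 618 bp) and 5.94 (−log10 q 23.7, 624 bp). Rplp2 (chr7:141447651-141451359) had 4.93 (−log10 q 12.0) and 5.88 (−log10 q 22.7), in a peak that also reached an end of Pidd1. None of the 3 had a sham or untreated peak.

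Rpl5, Rpl11, Rpl23 and Rps3 are known to bind Mdm2 and so to link ribosome assembly to p53. After infarction each had a fold below the median of marked genes, 4.17, while with IL-4 Rpl23 and Rps3 were above that median, 3.96. Rpl5 and Rpl11 form a particle with the 5S ribosomal RNA. Rpl5 had 3.97 after infarction (−log10 q 3.98) and 2.70 with IL-4 (−log10 q 1.66), and Rpl11 had 3.80 (−log10 q 4.63) and 3.47 (−log10 q 4.33). Rpl23 had 3.24 (−log10 q 3.27) and 4.29 (−log10 q 8.03), and Rps3, which lines the entry of the messenger RNA channel, had 3.02 (−log10 q 2.49) and 4.63 (−log10 q 7.65). Rps27l, a copy of Rps27 that p53 induces, was among the strong start-site peaks, with 7.43 (−log10 q 25.5) and 5.97 (−log10 q 17.4). Rps6 had 5.95 (−log10 q 12.4) and 4.82 (−log10 q 8.38), and Rps27a, made as a fusion to ubiquitin, 4.80 (−log10 q 8.43) and 4.70 (−log10 q 9.04).

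For the counts that follow, gene-end NPM1 peaks stood at 88.9% of all 81 members and 50.6% of all genes after infarction. With IL-4 the shares were 92.6% and 51.2%. Of the members along the peptide exit tunnel, NPM1 marked 6 of 9 after infarction at a median fold of 4.71 and 8 of 9 with IL-4 at 3.48. Of these 9, Rpl17 and Rpl22 had infarct peaks inside the gene but outside the gene-end window, and Rpl19 had its stronger peak at a listed start. The peak counted for Rpl4 overlapped an end of Snapc5. Of the 19 members listed as genes of Diamond-Blackfan anaemia, 19 were marked in each of these lists, at medians of 4.13 and 3.80. Among 8 elongation factors and other genes with TOP messages, 8 were marked in each, with a −log10 q of 5 or more in every case and medians of 7.80 and 7.75. Of 12 assembly and import factors of ribosomal proteins, 10 were marked in each, at 4.31 and 4.07. Of 6 further ribosome-linked genes, among them Fau and Rack1, 5 and 6 were marked, at 3.04 and 3.16. The 78 genes of mitochondrial ribosomal proteins gave 69 after infarction (median fold 4.13) and 63 with IL-4 (3.87). They gave 6 in the sham list (10.9% of all genes) and 2 in the untreated list (6.71%). Npm1 itself had 7.14 after infarction and 5.46 with IL-4, and no gene-end peak in the sham or untreated list.

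The sham peaks of members were set against the infarct and WT H3K4me3 peaks. Such overlap was not counted over all genes, so the counts describe these peaks only. Of the 9 sham peaks, 3 overlapped an infarct peak (Rpl4, Rps27a and Rps29) and 4 overlapped a WT H3K4me3 peak (the same 3 and Rpl37a). The other 5 were those of Rpl35, a tunnel exit protein (fold 3.04, 3646 bp from the nearest infarct summit of the gene), Rps20 (3.50, 1013 bp), Rpl29 (3.73, 416 bp), Rpsa, also known as the laminin receptor (4.47, 3615 bp), and Rps2 (3.46, 1098 bp). Rpl37a had a sham fold of 4.37 (−log10 q 2.80), Rpl4 of 3.50 (−log10 q 1.41) and Rps27a of 3.50 (−log10 q 1.41). The highest −log10 q among the 9 was 3.17, at Rpsa, and 6 of the 9 were at the smallest width in the list, 200 bp. At its start Rpsa had an infarct fold of 3.39 (−log10 q 3.57) and an IL-4 fold of 3.42 (−log10 q 4.86).

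Of the 3 untreated peaks, those of Rpl7 (3.46, 760 bp from the IL-4 summit) and Rps29 overlapped an IL-4 peak, an overlap also not counted over all genes. Rps2, which lies at the entry of the messenger RNA channel, had the third, and it was the only member with a sham and an untreated peak but no gene-end peak after infarction or with IL-4. Its sham summit was at 24721131 and its untreated summit at 24721106, inside the gene (chr17:24718121-24721927, + strand), with folds of 3.46 and 4.32. The infarct and IL-4 peaks of Rps2 were at the promoter shown above, at summits 24720033 and 24720023, with folds of 5.67 (−log10 q 25.5) and 5.34 (−log10 q 24.9). That promoter lies 1942 bp inside the outermost gene end, so it falls outside the gene-end window.

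The members with no gene-end NPM1 peak after infarction or with IL-4 were Rps2, Rpl17 and the copies Rpl32l, Rpl10l and Rpl39l. Rpl19, with a listed start 4707 bp inside the outermost gene end, had only weak gene-end peaks. At a listed start it had 5.85 (−log10 q 16.1) after infarction and 4.80 (−log10 q 13.4) with IL-4. Rpl17, a tunnel protein, had peaks inside the gene of 4.53 after infarction and 3.28 with IL-4, and of 6.29 and 7.41 with WT and knockout H3K4me3. Rpl22, which also binds viral RNA, had 4.58 after infarction and 3.21 with IL-4 near a listed start. With any peak in the gene or 1 kb around it, the counts were 75 after infarction (69.9% of all genes), 77 with IL-4 (72.1%), 12 in the sham list (43.5%), 3 in the untreated list (29.5%) and 78 in each H3K4me3 list (72.5% in WT and 69.9% in the knockout list). A longer gene has more room for a peak by this measure, and members are short. Rpl32l, Rpl10l and Rpl39l, the last a testis copy of Rpl39, had no peak in the infarct, IL-4 or H3K4me3 lists by this measure either.

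Besides these copies, Rpl37a, Rpl23a and Rps4x had no infarct NPM1 peak by this wider measure, and the start of Rpl6 had none. With IL-4, Rpl37a had 3.28 (−log10 q 3.16), Rpl23a, a docking site at the tunnel exit, 3.01 (−log10 q 2.65), and the X-linked Rps4x 3.86 (−log10 q 4.94), while Rpl6 had none. Each of these genes had H3K4me3 in WT cells, at folds of 5.47, 6.34, 4.59 and 4.76, and in knockout cells, at 7.31, 5.93, 11.84 and 7.63. The only infarct peak of Rpl6 was beyond its far end.

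The listed starts narrow down where the peaks lay. Of the 61 members with a listed start, a peak within 1 kb of one was found for 54 after infarction (49.6% of all genes with a listed start), 56 with IL-4 (49.5%), 57 with WT H3K4me3 (57.9%) and 57 with knockout H3K4me3 (62.8%). The sham list had 1, Rpl4 (6.07%), and the untreated list 1, Rps2 (5.16%), with summits 866 bp before and 1043 bp after the start. After infarction the summits lay a median of 36 bp before the start, with quartiles at −148.75 and 83 bp, and 48 of 54 were within 250 bp, against 71.4% of all genes with a start-site peak. With IL-4 the median was −34.5 bp, the quartiles −134.75 and 79.25 bp, and 52 of 56 were within 250 bp (71.1%). H3K4me3 summits lay at a median of −11 bp in WT and 49 bp in knockout cells, and 49 of 57 were within 250 bp in each (68.1% and 68.9% of all genes).

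**Figure D4:**
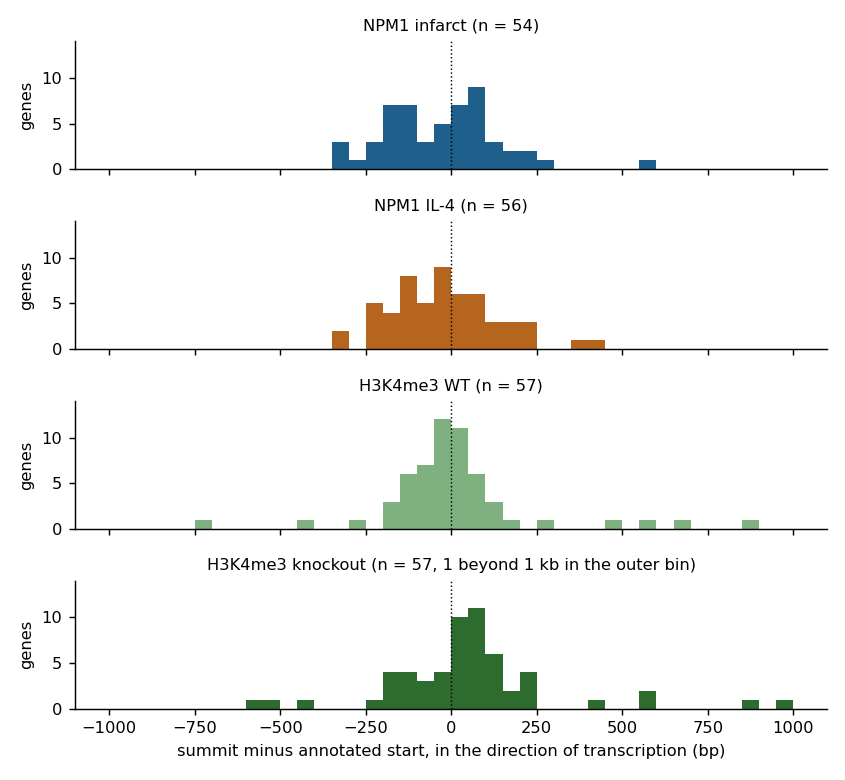
Distance from the nearest listed start to the summit of the strongest start-site peak, in the direction of transcription (bp, bins of 50 bp, negative before the start), for the members with such a peak in 4 lists; the dotted line is the start. NPM1 summits spread on both sides of the start (medians −36 and −34.5 bp), and the median H3K4me3 summit is at −11 bp in WT and 49 bp in knockout cells.

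NPM1 and H3K4me3 met at the same places after infarction. The infarct NPM1 gene-end peak overlapped a WT H3K4me3 peak by at least 1 bp in 69 of 72 members, where 85.6% of all genes with an infarct peak did. The exceptions were Rpl6, Rpl32 and Rpl19. For Rpl19 this holds for the weak gene-end peak only. At its listed start an infarct NPM1 peak of fold 5.85 lay inside a WT H3K4me3 peak of fold 6.06. The 2 folds were only loosely related over members, with a Spearman's rho of 0.38 (n = 72, Pearson's r 0.38) after infarction and of 0.28 (n = 75, Pearson's r 0.29) for IL-4 NPM1 against WT H3K4me3, where over all genes rho was 0.50 and 0.46. Rpl31 had the highest WT H3K4me3 fold of all members, 9.28, with an infarct NPM1 fold of 6.15, and Rpl10 had 3.52 with an NPM1 fold of 7.26.

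H3K4me3 marked nearly all members in both genotypes, and its peaks were wider in the list from Npm1 knockout cardiac macrophages. Gene-end peaks were listed for 76 members in WT (57.1% of all genes) and 77 in knockout cells (61.8%), and with a −log10 q of 5 or more for 73 (42.8%) and 77 (57%). The knockout list alone held Rps2 (8.37%), the WT list alone 0 members (3.73%), and Rpl32l, Rpl10l, Rpl39l and Rpl17 had none in either. Rps2 had a WT peak of 833 bp at its listed start, and in the knockout list this peak measured 2048 bp and reached into the window. The targeted gene, Npm1, had H3K4me3 folds of 7.60 in WT and 7.97 in knockout cells, which cannot check the deletion, since the deleted part is not given.

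Peak width had a median of 755 bp in WT, from 218 to 1933 bp, and of 1734 bp in knockout cells, from 804 to 2729 bp. All genes had medians of 681 and 1361 bp, so the wider peaks in the knockout list were a feature of the whole list. The peak was wider in the knockout list for 76 of 76 members and for 97.6% of all genes marked in both. Members ranked higher by width in the knockout list, at a median percentile of 75.7, than in WT, at 56.3. By fold they ranked lower there, at a median of 7.41 against 7.77 for all genes and percentile 45.4, than in WT, at 5.37 against 5.0 and percentile 58.2.

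The marked end of a gene was the end with the higher H3K4me3 fold. Where 1 peak gave the fold of both ends, the end of lower coordinate was taken. This was the far end in Rps12, Rps26, Rps27 and Rps28, on the - strand. In Rps12, peaks of 1254 bp in WT and 2440 bp in the knockout list so counted as 796 and 1148 bp. Bases under H3K4me3 peaks within 2 kb of the marked end were counted for the 76 members marked in both. Their median was 896.5 bp in WT (385 to 2042 bp) and 1743.5 bp in knockout cells (889 to 2699 bp), against 921 and 1523 bp over the 11685 genes marked in both. The median difference, knockout minus WT, was 757.5 bp in members and 572 bp in all genes, and the members' median percentile was 67.1. More bases were covered in the knockout list for 75 of 76 members and for 97.5% of all genes. The exception was Rpl22, where the window holds only part of the peaks.

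The 7 largest differences were those of Rpl12, Rpl32, Rpl23, Rps18, Rpl26, Rps6 and Rpl31. Rpl12, at the base of the stalk, went from 794 bp in WT to 2578 bp in the knockout list (difference 1784 bp). Rpl32 had 648 and 2194 bp, Rpl23 740 and 2256 bp, and Rps18 486 and 1934 bp. Rpl26, which lies at the tunnel exit, had 571 and 1959 bp, Rps6 629 and 2013 bp, and Rpl31 897 and 2229 bp. These genes had covered bases in WT near or below the median of members, 896.5 bp. A low WT value itself raises the difference, so choosing genes by the difference favours such values.

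The 5 smallest differences were those of Rpl22 (1042 and 1014 bp), Rpl5 (1190 and 1253 bp), Rps27l (1088 and 1151 bp), Rps24 (900 and 997 bp) and Rplp2 (780 and 1015 bp). The window also held only part of the Rps27l peaks, which were 1221 bp wide in WT and 1408 bp in the knockout list. The 3 stalk genes all had differences below the median of members, with 694 and 995 bp in Rplp0 and 1003 and 1331 bp in Rplp1. Rpl11 had 1205 and 1640 bp, Rps3 1098 and 1944 bp, Rpsa 925 and 2048 bp, and Rps27a 1199 and 1685 bp. By bases covered within 2 kb the highest member in each list was Rps19, with 2042 bp in WT and 2699 bp in the knockout list. The widest single gene-end peak in each was that of Rpl7, with 1933 and 2729 bp. That peak also overlapped an end of Rdh10 in both lists, and 6.98% and 19.1% of the Rpl7 gene lay under peaks.

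**Figure D5:**
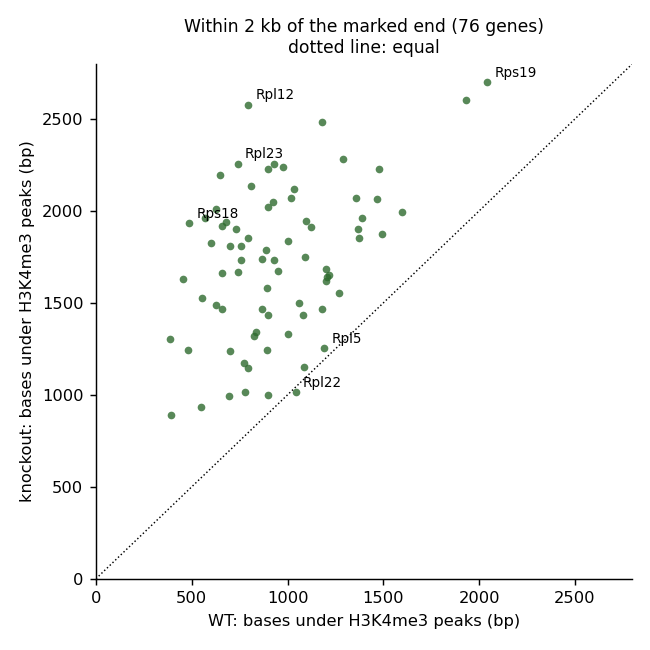
Bases under H3K4me3 peaks within 2 kb of the marked gene end, WT (horizontal) against Npm1 knockout (vertical) cardiac macrophages at day 3 of infarction, 1 point for each of 76 members, 1 library per genotype. All points but Rpl22 lie above the line of equal values, with a median of 896.5 bp in WT and 1743.5 bp in the knockout list.

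The added bases lay mainly after the start. Over the 57 members with a start-site peak in both lists, the 2 kb before the most upstream listed start held a median of 280 bp in WT and 524 bp in the knockout list, and the 2 kb after it 522 and 1229 bp. The median of the members' differences was 143 bp before the start and 658 bp after it, where all genes had 147 and 369 bp. The difference was larger after the start in 49 of 57 members and in 70.3% of the 9689 genes with a start-site peak in both. Rpl26 had 282 bp before and 289 bp after its start in WT, and 319 and 1640 bp in the knockout list. Rps4x had 77 and 308 bp in WT, and 89 and 1213 bp in the knockout list.

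Members are short genes, with a median extent of 3169.5 bp against 21656 bp for all genes marked in both, so a domain of like width takes up more of them. A median of 16.5% of the gene was under H3K4me3 peaks in WT and 35.8% in the knockout list, against 3.74% and 6.70% for all genes. Rpl41, which encodes the smallest ribosomal protein, was covered at 20.6% and 100%, and Rps29 at 48.3% and 87.6%. The knockout peak over Rpl41 also overlapped an end of Zc3h10, and its summit lay 1401 bp after the start of Rpl41, past the far end. Mitochondrial ribosomal protein genes had a median of 860 bp covered within 2 kb in WT and 1388 bp in the knockout list, and the elongation and TOP genes 1164.5 and 1926.5 bp. Spearman's rho between the WT and knockout H3K4me3 folds was 0.69 over the 76 members (Pearson's r 0.68) and 0.61 over all genes. Whether the wider peaks come from the genotype, the enrichment of the library or the calling of peaks cannot be told apart with 1 library per genotype.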

How the data were processed

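CUT&Tag libraries were made with a transposase kit, per the labels' protocols, and bcl2fastq 2.17, Bowtie2, MACS2 2.2.7.1, deepTools and mm10 are named by the submitters' processing notes. Settings, duplicate handling, control library and spike-in are not given in those sources. Each of the 6 deposited files is a peak list of 1 library, with the authors' score, fold enrichment ratio at the summit, −log10 p, −log10 q and summit offset for each peak. The fold and −log10 p were used to recover whole-number pileups and the background (within 0.001 of the deposited −log10 p for 99.87% to 99.91% of peaks), a stand-in for depth, since read totals were not used here. The smallest deposited −log10 p was 2.01, and a q above 0.05 was held by 5.01% to 27.8% of the peaks, depending on the list.

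For each of 21887 genes, peaks within 1 kb of either outermost gene end were taken (overlap of 1 bp or more), and the one with the highest −log10 q represents the gene. Listed starts come from the RefSeq promoter table. Positions are 1-based. Full values are given for the 8 strongest and 3 weakest members by −log10 q in the infarct and IL-4 lists, members with a sham or untreated peak or without a peak, the 8 largest and 5 smallest H3K4me3 differences, and fixed role groups; some genes that this rule names are not reported here. The members and lists were chosen with earlier results of these data known. TGCGCA was added to the motifs after the data were seen, and the planned YY1 core was shortened by 1 base. Each group had 1 library, so nothing was tested across samples. The alternatives were stricter q, other windows, equal list lengths, scaled depth, autosomes, start sites and left-out copies. Code (Python 3.11.15, numpy 2.4.6, pandas 2.3.3, scipy 1.17.1, matplotlib 3.10.9) was tested on simulated data.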

Additional observations from a re-analysis of the deposited data

How the results depend on the processing

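The main values were computed under 89 alternatives over 10 results, of which 80 stayed within 1.5 times the value reported and 9 did not. The small sham count, 9 members, was 0 with a −log10 q of 5 or more, 4 with a window of 500 bp, 18 with 2.5 kb and 3 at the start site or H3K4me3-marked end. The untreated count, 3 members, was 0 with a −log10 q of 5 or more, 1 with 500 bp and 5 with 2.5 kb. The median H3K4me3 difference of 757.5 bp was 502.5 bp within 1 kb of the marked end, a window that holds fewer bases. The 71 members with NPM1 in both the infarct and IL-4 lists were 43 with a −log10 q of 5 or more in both. For the other moves the cause was not tested beyond the construction of the window or threshold. Peaks anywhere in the gene, and leaving out Rpl32l with the other copies, were added after seeing the data. No paired analysis was possible because each group had 1 library. Depth limits what a missing peak means in the sham and untreated lists, whose backgrounds were 1.29 and 1.31. Gene ends take in neighbouring genes' promoters, and promoters inside the outermost extent are missed by them.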
